A study of Mus musculus with 407 samples.

Results

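The genes described here are the heat shock proteins and DnaJ chaperones of mouse skeletal muscle. They were chosen by symbol alone: every gene named Hsp followed by a, b, d, e or h and a number, every Dnaja, Dnajb and Dnajc gene, the Hsp90 genes Hsp90aa1, Hsp90ab1 and Hsp90b1, and Hsph1, Cryab and Hsf1. This rule gave 74 of the 24458 gene symbols in the count tables. The RNA came from 3 hind limb muscles (gastrocnemius, soleus and tibialis anterior) and from the diaphragm of female and male C57BL/6J mice, an inbred strain, with no genetic change and no treatment. The youngest mice were 6 months old, and the older groups were of 12, 18, 21, 24 and 27 months. The libraries, 98 from diaphragm, 104 from gastrocnemius, 103 from soleus and 102 from tibialis anterior, fell into 48 groups of muscle, sex and age with 6 to 10 libraries each. The mice were killed with CO2, and tissue of an age group was taken on a single day, so age and day of collection cannot be told apart. Whether females and males of an age shared that day is not stated. A difference between the sexes at a given age can therefore also hold a difference of day. The labels number the replicates but do not state that a number marks the same animal in different muscles, so libraries were treated as separate samples.

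Chaperones bind proteins that are unfolded or only partly folded. Small heat shock proteins hold such proteins in a soluble state, Hsp70 proteins bind and release them in cycles driven by ATP, DnaJ (Hsp40) proteins bring clients to Hsp70 and start its ATP hydrolysis, Hsp110 proteins exchange the bound nucleotide, and Hsp90 proteins act later on signalling proteins and on folding myosin. Separate sets serve the endoplasmic reticulum (ER) and the mitochondria. In muscle the small heat shock proteins bind to filaments of the sarcomere, and HSF1, the heat shock transcription factor, switches on the inducible genes after heat or other protein damage. HSF1 binds inverted repeats of the letters GAA, which can be written GAANNTTC or TTCNNGAA.

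To show which members carry these letters near their start, promoters of RefSeq genes in build GRCm38.p6, from 250 bases before to 50 after the start, were searched on both strands. A promoter was at hand for 58 of the 74 members. Bases are given 5′ to 3′ on the strand of the gene, and capitals mark the repeats. The genes shown are the paralogs Hspa1a and Hspa1b and the small heat shock protein gene Hspb1, whose promoters hold GAANNTTC, with Dnaja1, which moved in males at 21 months, Dnajb6, which rose in limb muscles, and Hspe1 and Hsph1 with repeats of both kinds or of the other kind.
Hspa1a, chr17:34972212-34972301, minus strand: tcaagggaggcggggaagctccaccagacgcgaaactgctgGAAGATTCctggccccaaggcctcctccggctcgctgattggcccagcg
Hspa1b, chr17:34959294-34959383, minus strand: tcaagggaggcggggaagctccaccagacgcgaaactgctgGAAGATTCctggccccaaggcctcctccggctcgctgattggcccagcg
Hspb1, chr5:135887771-135887860, plus strand: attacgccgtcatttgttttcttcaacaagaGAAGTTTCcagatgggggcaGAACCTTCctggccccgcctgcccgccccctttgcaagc
Dnaja1, chr4:40722333-40722362, plus strand: aaaagcctctaGAAAATTCtacgaggctcg
Dnajb6, chr5:29735843-29735872, plus strand: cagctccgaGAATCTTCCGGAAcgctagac
Hspe1, chr1:55088053-55088082, plus strand: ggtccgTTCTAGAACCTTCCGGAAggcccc
Hsph1, chr5:149636351-149636380, minus strand: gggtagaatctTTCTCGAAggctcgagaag

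GAANNTTC was found in the promoters of 14 of the 58 members, 24.1%, against 9.04% of all genes with a promoter in the table. TTCNNGAA was found in 6 of 58, 10.3%, against 9.60% of all genes. Both overlap in the longer run GAANNTTCNNGAA or TTCNNGAANNTTC, which was found in 4 members (Dnajb6, Hspd1, Hspe1 and Hsph1), 6.90%, against 0.662% of all genes. Hspd1 and Hspe1 lie head to head and can share these letters, and the run of Hsph1 lies outside the stretch printed for it. The windows of Hspa1a and Hspa1b were the same at 296 of 300 bases, and the printed stretches were identical. How alike the transcripts of these paralogs are was not measured. Whether their reads were split between them is therefore not known, and each gene's own level is uncertain. No match was found in the windows of Dnajb1 and Hspb7, which says only that these letters are not in those 300 bases.

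Library totals ran from 38583802 to 300089909 counts with a median of 72766895, so counting error was small beside the spread between libraries for all but the rarest members. Of the 74 members, 66 had enough counts to be tested in all 8 combinations of muscle and sex, 2 (Dnajb13 and Dnajc22) in 2, and 1 (Dnajb3) in 1. The other 5 (Dnajb7, Dnajb8, Dnajc5b, Dnajc5g and Hspb9) were tested in none. A set of 6 diaphragm libraries stood apart as low in Acta1 and Ckm, the genes of skeletal actin and muscle creatine kinase, whose summed level was 121 to 2061 CPM (read counts scaled by the total of the library) in them and 6252 to 11036 CPM in the other diaphragm libraries. They were 1 female library each at 6, 21, 24 and 27 months and 1 male library each at 6 and 27 months. In 11 libraries, 2 of them from male diaphragm, the summed level of 10 liver genes was over 10 times the median of their muscle. Replicate 6 of male diaphragm at 27 months was in both sets. For the diaphragm the calls at 27 and 21 months are given with and without these libraries. Shares of all genes are from fits with all libraries, so counts from fits without some libraries have no such share beside them. All other levels are CPM after TMM scaling, a correction for the make-up of each library. The labels of soleus and tibialis anterior at 6 months matched their slow fibre genes: the summed level of 7 such genes was 11397 to 22068 CPM in soleus and 56.0 to 124 CPM in tibialis anterior.

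Small heat shock proteins, Hspa8 and Hsp90ab1 held the 4 highest levels per kilobase in each muscle. These are levels in whole tissue, in which fewer cells of a type and less RNA per cell cannot be told apart. In CPM per kilobase of exon, Hspb6 was the highest member by median level in all 4 muscles. Its median over all ages and both sexes was 691 CPM in diaphragm (313 to 1238 over 98 libraries), 818 CPM in gastrocnemius (548 to 1656 over 104 libraries), 2198 CPM in soleus (1099 to 2975 over 103 libraries) and 1082 CPM in tibialis anterior (690 to 1902 over 102 libraries). Hspb6 is a small heat shock protein of striated and smooth muscle. Hspb7, a small heat shock protein of the sarcomere, stood at a median of 1676 CPM in soleus and at 342, 316 and 343 CPM in diaphragm, gastrocnemius and tibialis anterior. The lowest soleus library, at 779 CPM, was above the highest gastrocnemius library, at 716 CPM. Cryab, which encodes alpha-B crystallin, a chaperone of desmin, had medians of 364, 317, 851 and 296 CPM in the same order of muscles. Hspa8, the constitutive Hsp70 protein, varied little between muscles, with medians of 768, 963, 1043 and 1005 CPM, and its ranges overlapped in all of them. At the other end Dnajc6, a co-chaperone that removes clathrin coats, had a median of 4.38 CPM in diaphragm and 0.20, 0.170 and 0.168 CPM in the limb muscles.

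**Figure D1:**
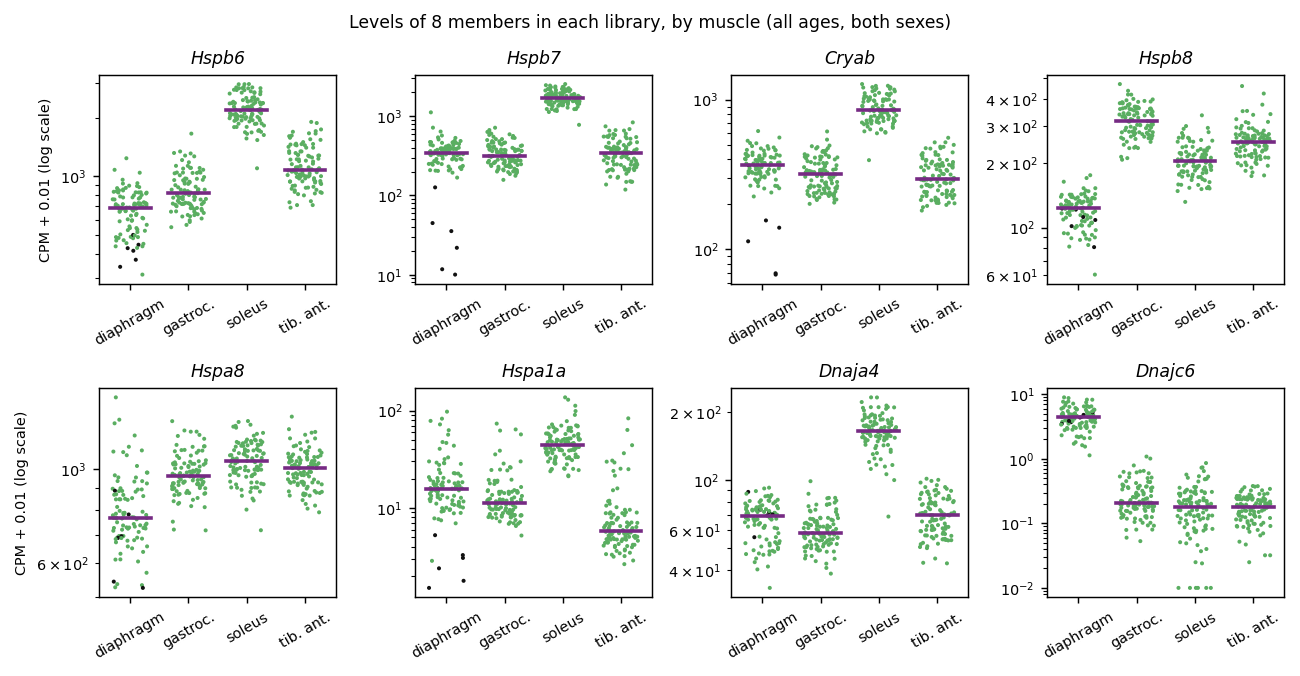
Levels of 8 members (CPM plus 0.01, log axis) in each library of the 4 muscles, all ages and both sexes; green points are libraries, black points the 6 diaphragm libraries low in Acta1 and Ckm, and purple bars medians. Hspb7, with a median of 1676 CPM in soleus and 316 CPM in gastrocnemius, Cryab, Hspb6, Hspa1a and Dnaja4 stand highest in soleus, Hspb8 is highest in gastrocnemius, and Dnajc6 is at 4.38 CPM in diaphragm against 0.20 CPM or less elsewhere.

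Which members differ between muscles was asked of all libraries in 1 fit, with gastrocnemius as the reference and a fold change above 1.5 required beside an adjusted p below 0.05. In soleus 11 of the 70 members tested were higher, where 13.7% of all genes were, and 4 were lower, where 16.7% were. Among the higher members were 4 of 7 small heat shock proteins and 4 of 8 cytosolic Hsp70 proteins. On the log2 scale the difference of soleus from gastrocnemius was 2.39 ± 0.07 (SE) for Hspb7, 1.46 ± 0.04 for Cryab and 1.39 ± 0.04 for Hspb6. For the Hsp70 genes it was 1.77 ± 0.12 for the inducible Hspa1a, 1.49 ± 0.13 for its paralog Hspa1b, 1.38 ± 0.04 for Hspa2 and 1.05 ± 0.04 for Hspa1l. Their partners Dnajb4 and Dnaja4, both cytosolic DnaJ proteins, were higher by 1.60 ± 0.04 and 1.47 ± 0.03. Hspb8, which works with BAG3 in removing damaged filament proteins, went the other way, at -0.61 ± 0.03. Dnajb12, a DnaJ protein of the ER membrane, was also lower in soleus, at -1.09 ± 0.04, as were Dnajc12 at -0.83 ± 0.04 and the very rare Dnajc22 at -1.52 ± 0.36.

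In diaphragm 13 of 70 members were higher than in gastrocnemius, against 32.4% of all genes, and 14 were lower, against 19.4%. The higher members included Dnajc6 at 4.10 ± 0.13 (log2, SE), the Hsp110 protein Hspa4l at 1.61 ± 0.03, the ER Hsp90 protein Hsp90b1 at 1.25 ± 0.04 and the inducible cytosolic Hsp90aa1 at 1.06 ± 0.05. Hspa12a, a distant relative of Hsp70, was at 1.42 ± 0.04. The lower members included Dnajb12 at -1.66 ± 0.04, Dnajc12 at -1.49 ± 0.04, Hspb8 at -1.38 ± 0.03, Hspa1l at -1.21 ± 0.04 and Dnajb5, a DnaJ partner of Hsp70 in muscle, at -1.11 ± 0.04. Hsf1 itself was lower, at -0.64 ± 0.04. Without the 6 libraries low in Acta1 and Ckm the counts were 12 and 13, and Dnaja1 and Hsf1 were no longer past both limits. In tibialis anterior no member was higher beside 2.42% of all genes, and 6 were lower beside 13.8%. These 6 were Hspa1a at -0.63 ± 0.12, Hspa1b at -0.67 ± 0.13, Dnajc6 at -0.60 ± 0.13, Dnajc22 at -1.27 ± 0.38, and the near-absent Dnajb3 and Dnajb13. Blocks of sample numbers in the labels were spread unevenly over the muscles. At 21 months all 8 female gastrocnemius libraries were in the first block and all 8 female diaphragm libraries in the second. All 6 libraries low in Acta1 and Ckm were in the second block. The fit held no term for block, so muscle and block cannot be fully told apart.

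The effect of age was first asked at 27 against 6 months, in each muscle and sex on its own, with 10 libraries at 27 months and 8 at 6 months. Members rose most in gastrocnemius and in female soleus. In female gastrocnemius 21 of 66 members rose, where 14.6% of all genes did, and 9 fell, where 14.6% did. In male gastrocnemius 13 of 67 rose beside 10.6% and 6 fell beside 12.6%. In female soleus 21 of 66 rose beside 10% and 2 fell beside 8.74%, while in male soleus 1 rose beside 1.80% and none fell beside 1.05%. In tibialis anterior 5 rose and 4 fell in females, beside 12.1% and 9.84%, and 10 rose and 4 fell in males, beside 9.97% and 7.81%. In diaphragm 1 rose and none fell in females, beside 0.624% and 0.988%, and none rose and 2 fell in males, beside 5.13% and 3.52%. Each of these counts had an adjusted p below 0.05 with no limit on fold change. Over the 8 combinations 47 of the 69 members tested changed at least in 1, 3 of them in both directions, and 22 in none. The share of all genes that changed in at least 1 is not given, so this count does not set the members apart from other genes. The difference between muscles and between sexes in the counts of the single combinations was not tested, but single members were, as given further on. Blocks of sample numbers were uneven over age too, and these fits held no term for them. In male diaphragm 2 libraries at 6 months were in the first block and 6 in the second. At 27 months 6 were in the first, 1 in the second and 3 in the third.

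The calls at 27 months were then counted by role. Over all genes and all 8 combinations together, 8.01% of tests were rises and 7.32% were falls. Small heat shock proteins gave 21 rises and no fall in 56 tests, and Hsp110 and cytosolic Hsp90 proteins 11 rises and no fall in 40. Cytosolic Hsp70 proteins gave 9 rises and 3 falls in 64 tests, and cytosolic DNAJA and DNAJB proteins 11 and 2 in 67. ER chaperones gave 11 rises and 4 falls in 104 tests. Mitochondrial chaperones gave 1 rise and 10 falls in 80 tests, and 4 of these 11 calls held without every replicate in turn. Here and below, leaving out a replicate takes out the libraries of that number at all ages, 6 months included. For Hsp110 and cytosolic Hsp90 proteins 7 of 11 calls held in this way, for cytosolic Hsp70 proteins 8 of 12 and for cytosolic DNAJA and DNAJB proteins 8 of 13. The remaining DNAJC proteins gave 7 rises and 8 falls in 106, of which 11 of 15 held. Hsf1 rose in female gastrocnemius alone, by 0.14 ± 0.05 (log2, SE; adjusted p = 0.032), and this call was lost without any of 5 single replicates. Hspb11 was given no role and had no call in its 8 tests. Tests of the same gene in different muscles and of genes in the same library are not independent, so these are counts and carry no p, and the difference between roles was not tested.

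**Figure D2:**
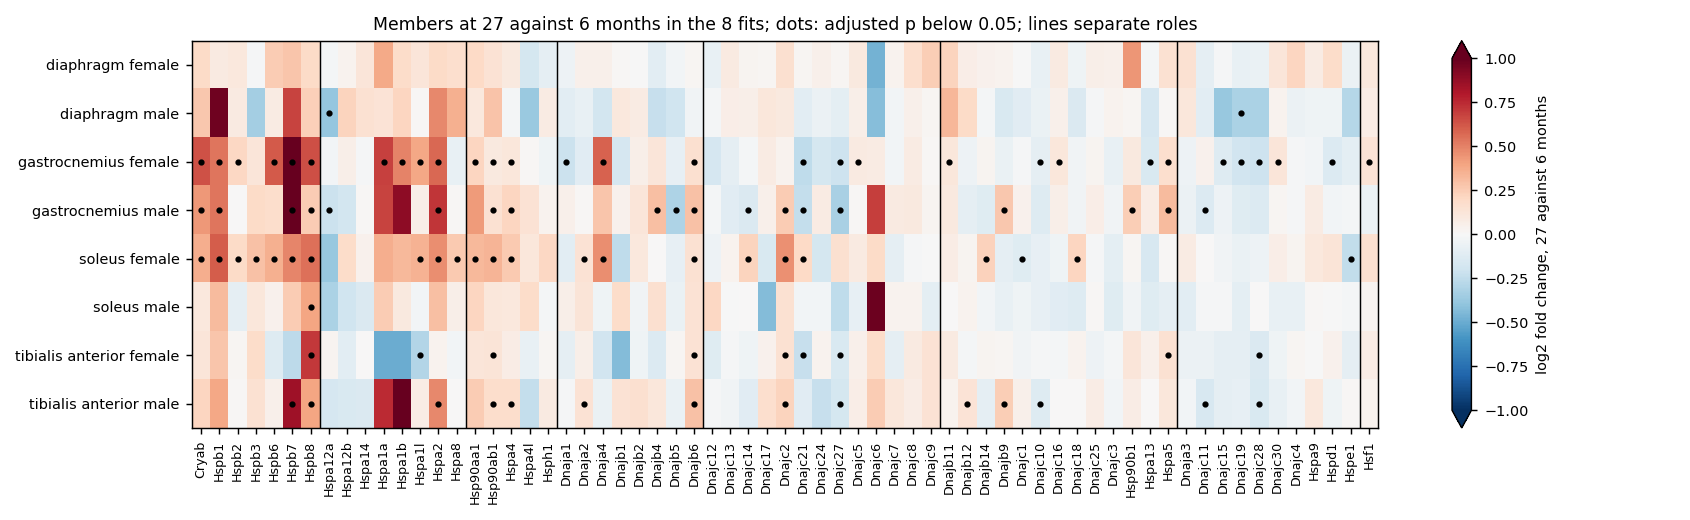
Log2 fold change at 27 against 6 months (colour, held at 1 in either direction) of the members tested in all 8 combinations of muscle and sex, ordered by role with lines between roles. Hspb11, which was given no role, is left out. Dots mark an adjusted p below 0.05. The small heat shock proteins carry 21 dots, all on rises, and the mitochondrial chaperones 11, of which 10 are on falls.

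Among the small heat shock proteins, Hspb7 rose most. In female gastrocnemius its lowest, median and highest levels were 201, 214 and 248 CPM at 6 months and 322, 450 and 634 CPM at 27 months. In male gastrocnemius they were 158, 202 and 218 CPM at 6 months and 262, 407.4 and 603 CPM at 27 months. Every library at 27 months was above every library at 6 months in both sexes, and the log2 fold change was 1.13 ± 0.13 in females and 1.14 ± 0.17 in males (adjusted p = 1.4e-09 and 9.4e-07). The medians of female gastrocnemius climbed through 288, 382, 387 and 461 CPM at 12, 18, 21 and 24 months, and those of males through 259, 261, 267 and 322 CPM. In female soleus Hspb7 rose from a median of 1397 CPM (1130 to 1736) to 2028 CPM (1528 to 2464), by 0.49 ± 0.10 with overlapping groups. In male tibialis anterior it rose from 265 CPM (148 to 343) to 397 CPM (201 to 836), by 0.85 ± 0.25 with adjusted p = 0.013. That call was lost when replicate 1, 6 or 7 was left out. In female tibialis anterior the medians were 511 and 376 CPM, and the log2 fold change of -0.26 ± 0.22 did not pass the test.

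Hspb8 was the only member that rose in all 6 limb muscle and sex combinations. Its log2 fold changes were 0.64 ± 0.06 and 0.26 ± 0.06 in female and male gastrocnemius, 0.55 ± 0.09 and 0.39 ± 0.08 in soleus, and 0.71 ± 0.10 and 0.39 ± 0.08 in tibialis anterior, with adjusted p from 1.1e-11 to 0.0025. In female tibialis anterior the lowest, median and highest levels went from 174, 196 and 221 CPM to 248, 292 and 461 CPM. In female gastrocnemius they went from 208, 236 and 280 CPM to 295, 361 and 471 CPM, and in female soleus from 132, 166 and 194 CPM to 195, 225 and 336 CPM. The groups did not overlap in any of the 3 female limb muscles, whereas they did in the 3 male ones. In the diaphragm the fold changes of 0.19 ± 0.11 in females and 0.23 ± 0.09 in males did not pass (adjusted p = 0.47 and 0.086).

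The other small heat shock proteins rose mainly in gastrocnemius and female soleus. Cryab went in female gastrocnemius from 256, 285 and 324 CPM (lowest, median, highest) to 327, 445 and 614 CPM, with no overlap, and in males from 206, 230 and 258 CPM to 228, 318 and 416 CPM. Its log2 fold changes were 0.64 ± 0.08, 0.43 ± 0.12 and, in female soleus, 0.37 ± 0.08. Hspb1 (Hsp27, which guards the actin network) rose in female gastrocnemius from 71.7, 80.7 and 84.3 CPM to 93.9, 110 and 159 CPM, again without overlap, by 0.54 ± 0.09. In male gastrocnemius and female soleus it rose by 0.53 ± 0.15 and 0.60 ± 0.15 with overlapping groups. Hspb6 rose by 0.62 ± 0.09 in female gastrocnemius and 0.36 ± 0.07 in female soleus, Hspb2 by 0.20 ± 0.05 and 0.19 ± 0.05 in the same places, and Hspb3 by 0.30 ± 0.08 in female soleus. Of the 21 rises in this role, 19 held without every replicate in turn; the exceptions were Hspb7 in male tibialis anterior and Hspb3 in female soleus, which was lost without replicate 2 (adjusted p = 0.060). The median log2 fold change of the 7 tested members was 0.62 and 0.26 in female and male gastrocnemius and 0.37 in female soleus.

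**Figure D3:**
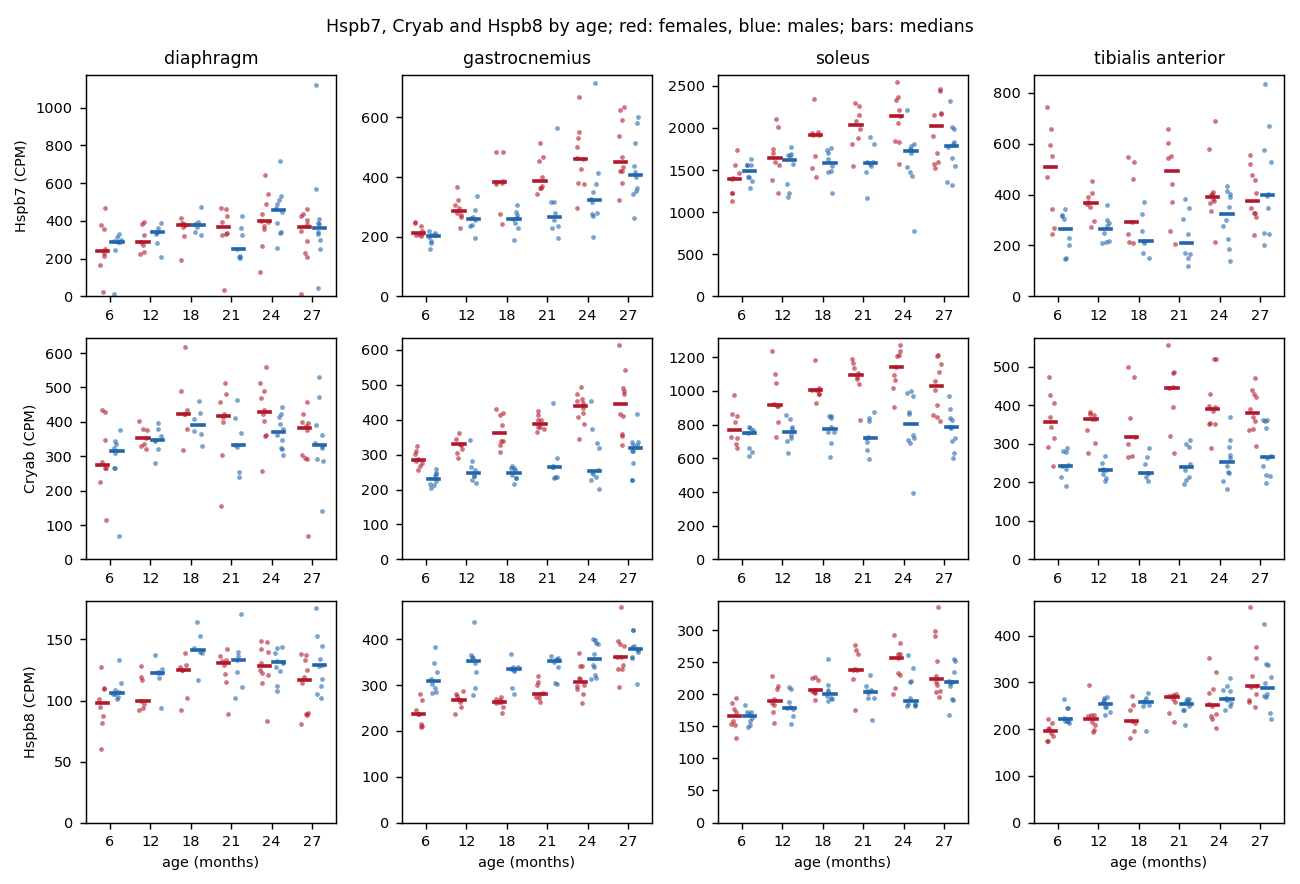
Levels of Hspb7, Cryab and Hspb8 (CPM) by age in months in the 4 muscles, females in red and males in blue; points are libraries and bars group medians. Hspb7 climbs in gastrocnemius from a median of 214 to 450 CPM in females and from 202 to 407.4 CPM in males, and Hspb8 is higher at 27 than at 6 months in every limb muscle of both sexes.

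Genes of slow fibres moved with this rise in gastrocnemius. Of 7 slow fibre genes, 6 rose in females and 4 in males, and of 8 fast fibre genes 6 and 5 fell, with 1 rise in males. The summed level of the slow fibre genes was 889 to 1442 CPM at 6 months and 1331 to 2690 CPM at 27 months in females, and 501 to 788 CPM and 413 to 1230 CPM in males. In female soleus 1 of 7 slow fibre genes rose and the sums overlapped, at 12531 to 22068 CPM and 16832 to 22315 CPM. In female tibialis anterior 4 of 7 rose and 1 fell, with sums of 73.5 to 124 CPM and 63.8 to 328 CPM, while Hspb8 was the small heat shock protein that rose there. Among 12 macrophage genes 4 rose in female and 2 in male gastrocnemius, 7 in female tibialis anterior and none in female soleus, where 3 fell. Among the other lists in female gastrocnemius 3 of 5 blood genes rose, 1 of 10 endothelial genes rose and 1 fell, and none of 6 adipocyte or 7 nerve genes passed. In male gastrocnemius 3 of 10 endothelial genes fell, with summed levels of 308 to 379 CPM at 6 months and 279 to 333 CPM at 27 months, and 3 of 7 nerve genes fell, with 84.0 to 140 CPM and 64.8 to 141 CPM. None of the adipocyte or blood genes passed there. The summed macrophage level there was 83.2 to 122 CPM at 6 months and 92.3 to 208 CPM at 27 months. The part of fibre genes and of other cells in the rise of the small heat shock proteins was not tested.

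Among the Hsp70 proteins, Hspa2 rose in gastrocnemius of both sexes, female soleus and male tibialis anterior. Hspa2 is best known from the testis and is lowly expressed in muscle. In male gastrocnemius it went from 4.24, 5.33 and 6.40 CPM to 7.33, 8.47 and 9.96 CPM, without overlap, and by 0.72 ± 0.09 on the log2 scale (adjusted p = 7.9e-08). In female gastrocnemius it rose by 0.57 ± 0.07, in female soleus by 0.46 ± 0.12 and in male tibialis anterior by 0.48 ± 0.10. The stress-inducible Hspa1a passed in female gastrocnemius only, where it rose from 6.96, 7.99 and 14.2 CPM to 9.60, 14.2 and 19.4 CPM, by 0.68 ± 0.16, and its paralog Hspa1b by 0.50 ± 0.17, a call lost without replicate 1 or 4. With the reads of both paralogs summed, the rise there was 0.61 ± 0.16 (adjusted p = 0.0023). The sums in male gastrocnemius and male tibialis anterior changed by 0.79 ± 0.47 and 0.88 ± 0.54. These estimates were larger but did not pass (adjusted p = 0.23 and 0.28). In female tibialis anterior the sum was at -0.49 ± 0.54 and did not pass either. The constitutive Hspa8 rose in female soleus from 718, 903 and 998 CPM to 1011, 1093 and 1155 CPM, without overlap, by 0.26 ± 0.05, whereas its change in female gastrocnemius was -0.07 ± 0.06. Hspa1l rose by 0.39 ± 0.09 and 0.35 ± 0.09 in female gastrocnemius and female soleus and fell by 0.29 ± 0.11 in female tibialis anterior, a call that was lost without any of 7 single replicates. Hspa12a fell in male diaphragm and male gastrocnemius, at -0.39 ± 0.12 and -0.21 ± 0.07, and lost these calls without any of 5 and of 3 single replicates.

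The Hsp90 and Hsp110 proteins rose by small amounts. Hsp90ab1, the constitutive cytosolic Hsp90, rose in 5 combinations: by 0.10 ± 0.03 and 0.15 ± 0.05 in female and male gastrocnemius, 0.34 ± 0.06 in female soleus, and 0.13 ± 0.04 and 0.18 ± 0.05 in tibialis anterior. Its medians in female soleus were 529 CPM at 6 months (430 to 583) and 653 CPM at 27 months (573 to 758), which overlapped narrowly. Without replicate 1 or 7 in female gastrocnemius, and without 2, 4 or 7 in female tibialis anterior, Hsp90ab1 was no longer called. The inducible Hsp90aa1 rose in female gastrocnemius, where the call was lost without replicate 1 or 7, and in female soleus, by 0.21 ± 0.07 and 0.32 ± 0.07. Hspa4, an Hsp110 protein, rose in gastrocnemius by 0.11 ± 0.04 and 0.21 ± 0.04, in female soleus by 0.26 ± 0.05 and in male tibialis anterior by 0.18 ± 0.04, and the call in female gastrocnemius was lost without any of 5 single replicates. For the inducible Hsph1, the medians of female soleus were 27.2 and 32.9 CPM, and no combination passed at 27 months.

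Of the cytosolic DnaJ proteins, Dnajb6, whose mutations cause a limb girdle muscular dystrophy, rose in 5 of the 6 limb combinations. The rises were 0.16 ± 0.04 and 0.29 ± 0.06 in female and male gastrocnemius, 0.15 ± 0.04 in female soleus, and 0.15 ± 0.04 and 0.29 ± 0.06 in female and male tibialis anterior. In male tibialis anterior its levels went from 79.3, 85.9 and 88.1 CPM to 88.2, 95.0 and 140 CPM, just without overlap. Its promoter holds the longer run of repeats. Dnaja4 rose in female gastrocnemius from 42.7, 48.2 and 50.9 CPM to 54.8, 73.0 and 87.0 CPM and in female soleus from 100, 131 and 155 CPM to 156, 179 and 222 CPM, by 0.59 ± 0.07 and 0.46 ± 0.08. Neither pair of groups overlapped. The inducible Dnaja1 fell in female gastrocnemius by 0.21 ± 0.07, a call lost without replicate 5, and Dnajb5 fell in male gastrocnemius by 0.31 ± 0.05. Dnajb4 rose in male gastrocnemius by 0.30 ± 0.10, a call lost without any of 4 single replicates. The rise of Dnajb13 in female diaphragm, 2.80 ± 0.66, rests on a gene near the limit of detection, with a highest library of 0.0799 CPM at 6 months and 0.414 CPM at 27 months, and was lost without replicate 6 or 7.

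In the ER the main Hsp70 protein Hspa5 (BiP) rose by 0.17 ± 0.06 and 0.32 ± 0.10 in female and male gastrocnemius and by 0.15 ± 0.05 in female tibialis anterior. Its medians in male gastrocnemius were 110 CPM at 6 months (102 to 135) and 133 CPM at 27 months (118 to 188). Hsp90b1 rose in male gastrocnemius by 0.24 ± 0.09, and Dnajb9 in male gastrocnemius and male tibialis anterior by 0.27 ± 0.10 and 0.24 ± 0.09. Of the 15 calls among ER chaperones 3 held without every replicate in turn, and those of Hspa5, Hsp90b1 and Dnajb9 were not among them. In the mitochondria the matrix Hsp70 gene Hspa9 passed in no combination. Hspd1 and Hspe1, the chaperonin pair, fell by 0.13 ± 0.04 in female gastrocnemius and by 0.24 ± 0.07 in female soleus, and Hspe1 lost its call without replicate 4. Dnajc28 fell by 0.21 ± 0.05 in female gastrocnemius and by 0.15 ± 0.05 in tibialis anterior of each sex. The call in tibialis anterior was lost in females without replicate 4 or 5 and in males without any of 6 single replicates.

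Among the remaining DNAJC proteins, Dnajc27, which carries a GTPase domain of the Rab family, fell in gastrocnemius and tibialis anterior of both sexes. In male gastrocnemius it went from 77.2, 82.1 and 93.6 CPM to 61.1, 65.0 and 69.4 CPM, without overlap, and fell by 0.32 ± 0.04 on the log2 scale (adjusted p = 4.5e-08). In females the fall there was 0.21 ± 0.04, and in tibialis anterior the falls were 0.16 ± 0.03 in females and 0.17 ± 0.05 in males. Dnajc21, a factor of ribosome assembly, fell in female and male gastrocnemius by 0.26 ± 0.05 and 0.24 ± 0.07 and in female tibialis anterior by 0.23 ± 0.04. It rose in female soleus by 0.20 ± 0.07, a call lost without any of 6 single replicates. Dnajc2, which sits at the ribosome, rose in female soleus by 0.46 ± 0.07, in female and male tibialis anterior by 0.16 ± 0.05 and 0.22 ± 0.05 and in male gastrocnemius by 0.25 ± 0.10, where the call was lost without any of 5 single replicates. Dnajc5, a chaperone of synaptic vesicles, rose in female gastrocnemius by 0.09 ± 0.03 and lost this call without replicate 7.

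In the diaphragm the calls at 27 months differed with and without the libraries low in Acta1 and Ckm. How many members these libraries bore on was not counted. In males at 6 months Hspb7 was at 10.04 CPM in the lowest library beside a median of 289 CPM, and Hspb1 at 1.81 CPM beside a median of 84.7 CPM. With all libraries the 2 falls in males were Hspa12a and Dnajc19, and the rise in females was Dnajb13. Without the low libraries Hspb7, Dnajc2, Dnajc13 and Hspa12a were called in males, with Hspb7 higher by 0.61 ± 0.21 (adjusted p = 0.045), and Dnajb13 and Dnajc9 in females. Without the liver-marked libraries 5 members were called in males: Hspa8 was higher by 0.36 ± 0.13 (adjusted p = 0.039), and Dnajc15, Dnajc19, Hspa12a and Hspa4l were lower. Both of these male fits left out replicate 6 at 27 months, so they are not separate checks. In tibialis anterior of females, which held 3 liver-marked libraries, 5 in place of 9 members were called without them, with Hspb8 at 0.71 ± 0.11. No share of all genes is given for the fits without these libraries.

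With a fold change above 1.5 required at any older age, few members passed. They were Cryab, Dnaja4, Hspa1a, Hspb6, Hspb7 and Hspb8 in female gastrocnemius (6 of 66, beside 9.44% of all genes) and Dnaja1, Dnajb1, Hspa1b, Hspa2 and Hspb7 in male gastrocnemius (5 of 67, beside 8.06%). In female soleus Hspa12a, Hspa1a, Hspa1b, Hspa2 and Hspb1 passed (beside 8.52%), and in male soleus Dnaja1 (beside 2.85%). Dnajb1 and Hspb8 passed in female tibialis anterior (beside 9.25%), and Hspb7 in male tibialis anterior (beside 8.53%). In diaphragm it was Dnajb13 in females (beside 2.95%) and Dnaja1, Dnajb1, Dnajc22, Hspa1b and Hspa8 in males (beside 11%). Dnaja1 is on the male lists of diaphragm, gastrocnemius and soleus.

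At 21 months Dnaja1, and in part Dnajb1, Hspa1b and Hspa8, were raised in males, an age that was looked at because of the values seen. At 21 against 6 months 6 members rose in male diaphragm, beside 6.15% of all genes, 9 in male gastrocnemius, beside 5.73%, 1 in male soleus, beside 0.977%, and 2 in male tibialis anterior, beside 3.71%. In females none rose in diaphragm, beside 0.506%, 10 in gastrocnemius, beside 8.13%, 27 in soleus, beside 11.4%, and 3 in tibialis anterior, beside 5.43%. The falls in males were Dnajc1 and Dnajc18 in diaphragm, beside 4.52% of all genes, Dnaja3, Dnajc27 and Hspa12b in gastrocnemius, beside 4.47%, none in soleus, beside 0.397%, and Dnajc30 and Hspa12b in tibialis anterior, beside 3.06%. In females none fell in diaphragm, beside 1.02%, while Dnajb1, Dnajb2, Dnajc19 and Dnajc28 fell in gastrocnemius, beside 7.66%, Dnajb1 and Hspa12a in soleus, beside 11.3%, and Dnajb4 and Dnajc21 in tibialis anterior, beside 5.28%. Without the libraries low in Acta1 and Ckm the diaphragm of females held 4 calls, with Dnaja1 at -0.47 ± 0.12 and Dnajb1 at -0.49 ± 0.14 lower (adjusted p = 0.018 and 0.033) and Dnajc5 and Hspb2 higher. The diaphragm of males then held 9 calls, all higher, with Dnaja1 at 1.57 ± 0.29 and Dnajb1 at 2.16 ± 0.45. The shares of all genes above are from the fits with all libraries, so these changes in count cannot be read as particular to the members.

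With all libraries Dnaja1 rose in all 4 male muscles, by 1.08 ± 0.33 in diaphragm and by 0.67 ± 0.19, 0.66 ± 0.14 and 0.54 ± 0.16 in gastrocnemius, soleus and tibialis anterior. In male gastrocnemius its lowest, median and highest levels were 20.8, 24.0 and 31.9 CPM at 6 months and 22.7, 40.9 and 61.1 CPM at 21 months, and the groups overlapped. Dnajb1, the main inducible partner of Hsp70, rose by 2.29 ± 0.44 in diaphragm and 1.00 ± 0.29 in gastrocnemius, and its 0.80 ± 0.28 in soleus and 0.62 ± 0.25 in tibialis anterior did not pass (adjusted p = 0.18 and 0.14). In females Dnajb1 fell in gastrocnemius and soleus, by 0.38 ± 0.11 and 0.53 ± 0.10. Summed over the paralogs, Hspa1a and Hspa1b rose by 1.81 ± 0.55 in male diaphragm (adjusted p = 0.029) and 1.45 ± 0.49 in male gastrocnemius (adjusted p = 0.049).

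Female soleus, the other place where many members moved at 21 months, showed a wider set. Of its 27 rises, 5 were among 7 small heat shock proteins, 6 among 8 cytosolic Hsp70 proteins and 4 among 5 Hsp110 and cytosolic Hsp90 proteins. Hspb6 went there from 1680, 1937 and 2356 CPM (lowest, median, highest) at 6 months to 2376, 2678 and 2967 CPM at 21 months, without overlap, by 0.42 ± 0.07. Hsp90ab1, by 0.40 ± 0.06, and Dnajc2, by 0.50 ± 0.08, also rose without overlap. Hspb7 rose by 0.51 ± 0.11, Hspb8 by 0.52 ± 0.09, Cryab by 0.44 ± 0.09, Dnaja4 by 0.55 ± 0.09 and Hspa2 by 0.60 ± 0.13. Hspa1a rose by 0.66 ± 0.19 and Hsph1 by 0.30 ± 0.10, while Dnajb1 and Hspa12a fell there, Hspa12a by 0.62 ± 0.17. The medians of Hspb7 in female soleus at 12, 18, 21, 24 and 27 months were 1646, 1912, 2033, 2138 and 2028 CPM, and those of Hspa8 were 1032, 1059, 1118, 1148 and 1093 CPM, so for both the highest median was at 24 months. The count called in female soleus at 21 months, both directions together, was 29 with or without the liver-marked libraries and 22 to 31 with single replicates left out. Beside these rises 3 of 7 nerve genes fell, with a median log2 fold change of -1.12 over the list and summed levels of 69.9 to 391 CPM at 6 months and 60.2 to 179 CPM at 21 months. Of 12 macrophage genes 2 fell, with sums of 112 to 176 CPM and 89.3 to 129 CPM. None of the slow fibre, adipocyte or blood genes passed, and 1 of 10 endothelial genes rose. The part of other cells in the changes of female soleus was not tested.

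In males the rise of Dnajb1 and Dnaja1 at 21 months was uneven between libraries. In gastrocnemius the 8 libraries at 21 months had Dnajb1 levels of 5.19, 6.57, 21.3, 26.3, 13.9, 10.6, 6.99 and 7.80 CPM for replicates 0 to 7, and in tibialis anterior 4.51, 6.91, 14.9, 18.4, 9.36, 8.39, 6.73 and 6.01 CPM. In soleus, where replicate 2 is liver-marked, they were 4.99, 7.65, 20.7, 20.6, 12.6, 8.14, 7.33 and 8.31 CPM. Replicates 2, 3 and 4 were the 3 highest in each of these muscles, although the labels do not say that a number is a single mouse. In diaphragm the 7 libraries held 11.3, 41.1, 49.6, 156, 17.2, 12.3 and 12.4 CPM, and replicate 3, the highest, is liver-marked. Leaving out replicate 3 took out its libraries at every age, 6 months included. The diaphragm and gastrocnemius calls of Dnajb1 and Dnaja1 and the soleus and tibialis anterior calls of Dnaja1 were then all lost. The part of the 21-month libraries alone in this loss was not tested. Without the liver-marked libraries the count in male diaphragm at 21 months, both directions together, went from 8 to 2 (Dnajb1 at 1.42 ± 0.36 and Hspa8 at 0.55 ± 0.14). Single male libraries were high at 24 months too: replicates 5 and 6 held 28.0 and 18.8 CPM of Dnajb1 in gastrocnemius, 25.5 and 18.4 CPM in soleus and 17.7 and 12.7 CPM in tibialis anterior, beside group medians of 6.26, 7.92 and 6.29 CPM. Dnajc22 in male diaphragm at 21 months, at 5.17 ± 1.53, rests on that same library, with 16.9 CPM beside 0.129 CPM or less in the other 6.

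Immediate early genes, which answer within minutes to a stimulus, rose in males at 21 months. Of 12 such genes 5, 8, 2 and 4 rose at 21 months in males, in the order diaphragm, gastrocnemius, soleus and tibialis anterior, and none fell, whereas in females none rose and 0, 2, 5 and 3 fell. In female soleus, where 5 of these genes fell and their median log2 fold change was -0.45, 5 of 10 stress-inducible members rose and 1 fell, with a median of 0.30. In male gastrocnemius their summed level was 195 to 448 CPM at 6 months and 193 to 1159 CPM at 21 months. Their part in the change of the chaperones was not tested.

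**Figure D4:**
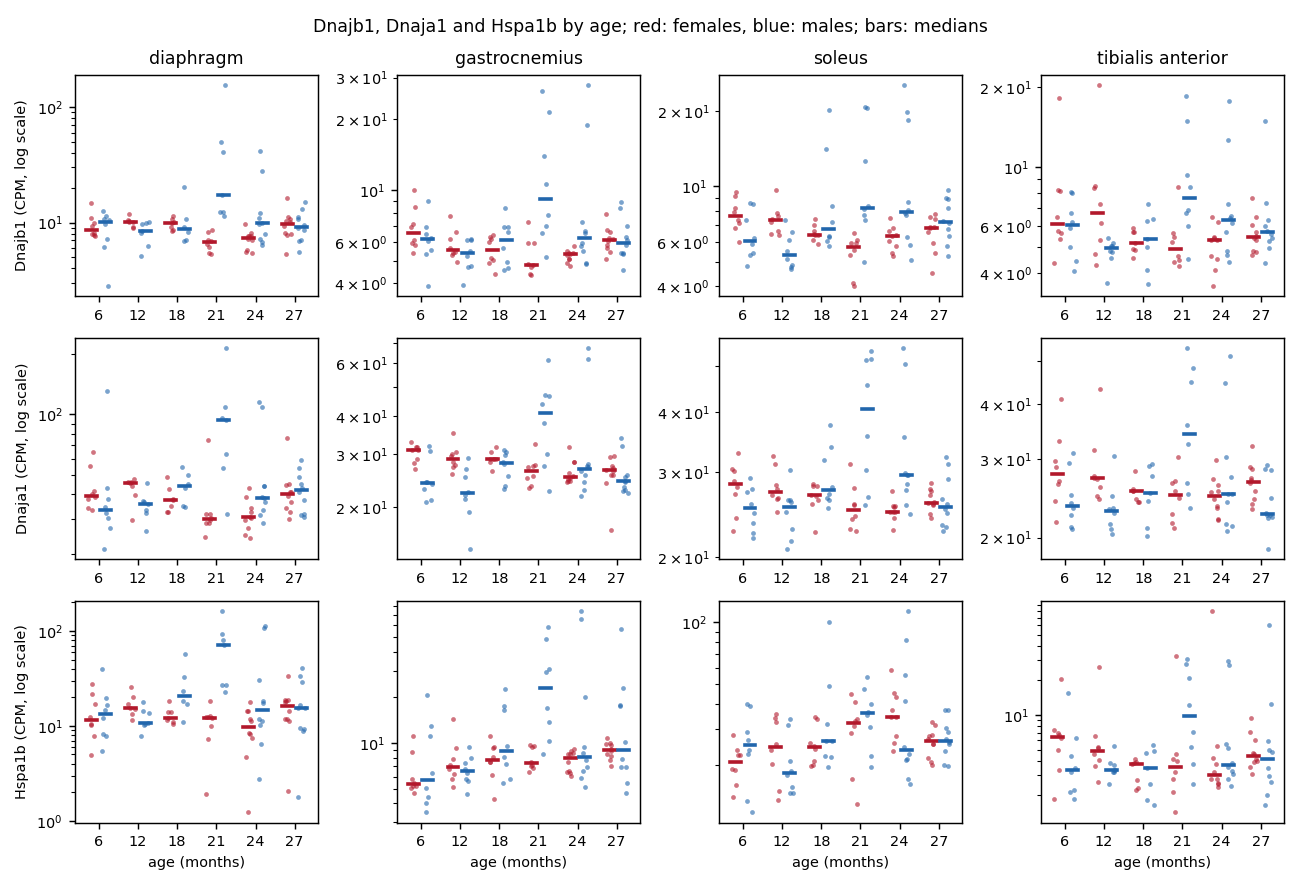
Levels of Dnajb1, Dnaja1 and Hspa1b (CPM, log axis) by age in months in the 4 muscles, females in red and males in blue; points are libraries and bars group medians. For Dnajb1 the highest male library at 21 months reaches 156 CPM in diaphragm, where it is liver-marked, and 26.3, 20.7 and 18.4 CPM in gastrocnemius, soleus and tibialis anterior.

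Whether the sexes differed in these changes was tested as an interaction of sex and age, given as the change in females minus that in males. A day of collection that differed between the sexes could not be told apart from this interaction. At 21 months, an age chosen after the values were seen, Dnajb1 differed in all 4 muscles, by -2.79 ± 0.45, -1.38 ± 0.31, -1.34 ± 0.31 and -1.17 ± 0.34 in diaphragm, gastrocnemius, soleus and tibialis anterior (adjusted p from 9.2e-05 to 0.030). Dnaja1 differed by -1.38 ± 0.37, -0.84 ± 0.20, -0.82 ± 0.16 and -0.76 ± 0.19 (adjusted p from 0.00055 to 0.026). In all, 4 members were called in diaphragm, with Hspa1b and Hspa8 beside these, 3 in gastrocnemius, with Hspa12b, 8 in soleus and 2 in tibialis anterior, beside 2.28%, 4.28%, 3.67% and 4.42% of all genes. Without the liver-marked libraries Dnajb1 stayed called in all 4 muscles, at -1.92 ± 0.39 in diaphragm, and Dnaja1 in the 3 limb muscles. Limma-voom called Dnaja1 in all 4 muscles and Dnajb1 in all but tibialis anterior.

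At 27 months 2 members passed the test between the sexes. Hspb8 rose more in females than in males in gastrocnemius, by 0.37 ± 0.09 (adjusted p = 0.011), beside 1.60% of all genes called there, and 17 of 67 members had an unadjusted p below 0.05. Dnajc18 differed in soleus, by 0.33 ± 0.09, beside 0.855%, and 13 of 66 members had an unadjusted p below 0.05. With the replicate number as a block no member was called in soleus. None was called in diaphragm by edgeR or limma-voom, beside 0% of all genes, with 1 at an unadjusted p below 0.05. None was called in tibialis anterior by either tool, beside 1.73%, with 13 at an unadjusted p below 0.05. The counts of rises in female and male soleus were not themselves compared by a test. The shares of all genes given here are at an adjusted p. For members at an unadjusted p below 0.05, here and for muscle and age below, no share of all genes is given, so these counts have no background.

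The interaction of muscle and age compared each muscle's change at 27 months with that of gastrocnemius in the same sex. In females Hspb7 rose in gastrocnemius and its median was lower in tibialis anterior, and the difference of the 2 changes was -1.41 ± 0.34 (adjusted p = 0.013), a call that limma-voom did not make. Dnaja4, Hspb6 and Hspa1l differed in the same direction in female tibialis anterior, by -0.80 ± 0.16, -0.77 ± 0.18 and -0.70 ± 0.18, and these 4 stood beside 0.570% of all genes. Limma-voom called Dnaja4, Hspb6 and Hspa1l. In female soleus 6 members changed upward relative to gastrocnemius, beside 5.51% of all genes: Hspa8 by 0.34 ± 0.09, Dnajc2 by 0.43 ± 0.14, Dnajc21 by 0.46 ± 0.15, Dnajc27 by 0.37 ± 0.12, Dnajc14 by 0.25 ± 0.07 and Dnajc18 by 0.26 ± 0.08. In female diaphragm Dnaja4 and Hspb8 differed by -0.53 ± 0.16 and -0.44 ± 0.14, beside 3.20%, and in male diaphragm Dnajb6 by -0.30 ± 0.09, beside 3.44%. Without the libraries low in Acta1 and Ckm the female diaphragm list held 6 other members, among them Hspb7 at -0.87 (adjusted p = 0.011) and Hspa8 at 0.30 (adjusted p = 0.024), and the male list held Dnajc13 alone. No member was called in male soleus, beside 0.594%, or in male tibialis anterior, beside 0%, by edgeR or limma-voom, with 3 and 2 at an unadjusted p below 0.05. Comparisons with gastrocnemius share its libraries. These fits and those between muscles took all libraries as independent, although deviations of same-numbered libraries of tibialis anterior and gastrocnemius correlated above 0.1 in 56 of 102 pairs. With the libraries of each sex, age and number as a block in limma-voom, the 6 calls in female soleus and those of Dnaja4, Hspb6 and Hspa1l in female tibialis anterior were kept, and no member was called in diaphragm.

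Within groups of the same muscle, sex and age, Hspa1a was correlated with 5 other inducible or constitutive members. Levels were taken as log2 CPM minus the group mean, over 104 gastrocnemius, 103 soleus and 102 tibialis anterior libraries and the 92 diaphragm libraries not low in Acta1 and Ckm. Hspa1a correlated with Dnajb1 at Pearson's r = 0.76 in tibialis anterior (Spearman's rho = 0.74), 0.72 in gastrocnemius (rho = 0.56), 0.65 in diaphragm (rho = 0.66) and 0.61 in soleus (rho = 0.53). Each had a permutation p of 1e-05, the smallest that 100000 permutations within groups can give, and 1.18e-05 after adjustment over the 20 relations computed. Without the 2 libraries farthest from the median of Hspa1a, r was 0.78, 0.63, 0.64 and 0.53. Over the blocks of sample numbers in the labels, r ran from 0.76 to 0.78 in tibialis anterior, 0.62 to 0.86 in gastrocnemius, 0.51 to 0.92 in diaphragm and 0.33 to 0.81 in soleus. The blocks differed in size. The third, in diaphragm only, held 2 female and 3 male libraries at 27 months, so r within it rests on few values. In gastrocnemius r was 0.80 in males and 0.18 in females, a difference that was not tested. In tibialis anterior it was 0.81 in males and 0.70 in females, in soleus 0.68 and 0.49, and in diaphragm 0.67 and 0.57.

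**Figure D5:**
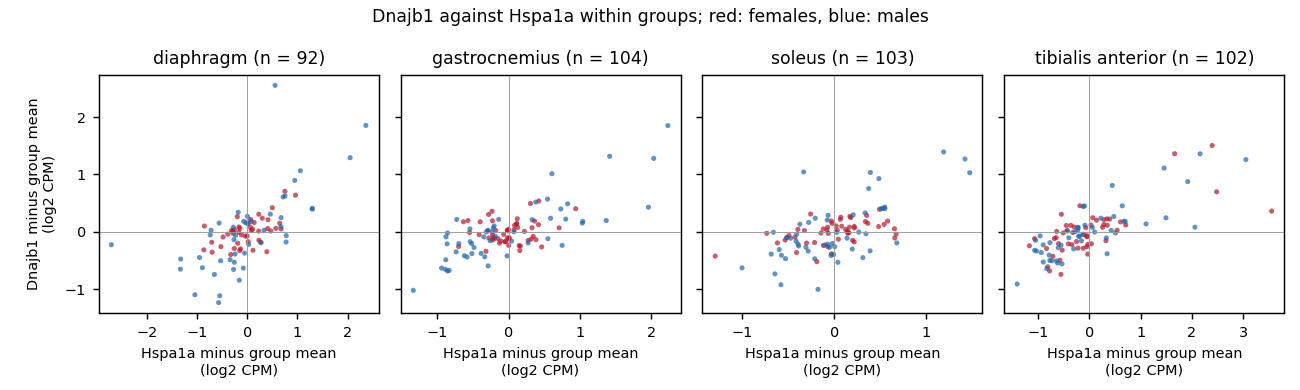
Dnajb1 against Hspa1a, each as log2 CPM minus the mean of its group, in the 4 muscles, females in red and males in blue; each point is a library. The points rise from lower left to upper right with r from 0.61 in soleus to 0.76 in tibialis anterior; in gastrocnemius r is 0.80 in males and 0.18 in females.

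Hsp90aa1 followed Hspa1a with r of 0.69, 0.68, 0.62 and 0.73 in diaphragm, gastrocnemius, soleus and tibialis anterior, and Hspa8 with 0.64, 0.67, 0.58 and 0.56. Hspb1 did so with 0.50, 0.61, 0.58 and 0.56, and Hsph1 with 0.62, 0.58, 0.40 and 0.41. All 20 relations passed the permutation test after adjustment, with a highest adjusted p of 0.00037, and Spearman's rho was positive in each. With the 6 low diaphragm libraries added, r in diaphragm was 0.14 for Hsph1 and 0.18 for Hsp90aa1, so these 2 values depend on leaving them out. In female gastrocnemius alone r was low, at 0.04 for Hsph1, 0.23 for Hspa8, 0.32 for Hsp90aa1 and 0.39 for Hspb1, beside 0.71, 0.80, 0.73 and 0.67 in males, and this difference was not tested. As a description, Dnajb1 had rank 2 of 17579 genes in closeness to Hspa1a in tibialis anterior, rank 3 in gastrocnemius, rank 11 in diaphragm and rank 17 in soleus.

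The partners of these chaperones were taken from a list of 45 co-chaperones and folding factors, 44 of which were in the tables. At 27 months 8 of 44 rose and 4 fell in female gastrocnemius, where 14.6% of all genes rose and 14.6% fell. In male gastrocnemius 10 rose and 4 fell, beside 10.6% and 12.6%. In soleus 8 rose and 2 fell in females, beside 10% and 8.74%, and 2 rose and none fell in males, beside 1.80% and 1.05%. In female tibialis anterior 11 rose and 3 fell, beside 12.1% and 9.84%. In male tibialis anterior 11 rose and 1 fell, beside 9.97% and 7.81%. In female diaphragm none changed, beside 0.624% of all genes rising and 0.988% falling. In male diaphragm 3 rose and none fell, beside 5.13% and 3.52%. None was called in the same direction in 5 or more combinations. Those called in 4 were chosen after the values were seen: Cct3 and Cct8, subunits of the cytosolic chaperonin, rose by 0.18 to 0.27 and by 0.09 to 0.16, Hsf4, a heat shock factor gene, by 0.22 to 0.39 and Sdf2l1, an ER protein, by 0.42 to 0.83, and Fkbp4, a co-chaperone of Hsp90, fell by 0.18 to 0.23 on the log2 scale.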

How the data were processed

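Total RNA of each muscle was depleted of ribosomal RNA and made into stranded libraries, read as pairs of 76 bases. The authors quantified reads with the ArrayStudio pipeline on mm10 and a gene model built from RefSeq; the sources used here give no version. They deposited raw read counts per gene, 1 table a library, which were used as deposited. For each gene name the row with the most counts was kept. Of 25091 rows, 633 that repeated a name, holding 0.0335% of counts, were left out.

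Females and males of each muscle were fitted apart, over all 6 ages with edgeR 4.0.16 in R 4.3.3 (TMM scaling, filterByExpr, quasi-likelihood test, Benjamini-Hochberg adjustment over all genes tested); adjusted p in the report are from these fits. Muscles were compared over all libraries, and interactions were contrasts of the same kind. Limma 3.58.1 (voom) and DESeq2 1.42.0 were alternatives. Correlations used log2 CPM less group means. P-values measure the spread between libraries. No 2 libraries held identical counts. Scripts were tested on simulated data.

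The members, roles and marker lists were chosen with earlier results of these data known. Genes named were 24 fixed members, and those called with a fold change above 1.5 at 27 months in 2 or more fits, called in both sexes of a muscle (the 3 largest each way), farthest from gastrocnemius (6 each way) or called in an interaction (the 3 smallest p); the other interaction calls are named to be complete. Members named beside these, such as Dnajb13, Dnajc22, Hspa1l, Hspa4, Hspb2, Hspb3 and Dnajc28, were chosen after their values were seen. Promoter sequences are those of RefSeq in GRCm38.p6.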

Additional observations from a re-analysis of the deposited data

Results flagged for a closer look

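The summed level of the 8 small heat shock proteins and that of 10 stress-inducible members (CPM of the library total) were looked at in each of the 48 groups for a library far from the rest by Dixon's test. Of these 96 sets 16 held such a library, 11 of them at the high end, where chance flags about 1 in 20.

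For the small heat shock proteins, the lowest library was far from the others in female diaphragm at 6, 21, 24 and 27 months, at 766, 809, 1364 and 630 CPM, and in male diaphragm at 6 months, at 603 CPM. These 5 are among the 6 libraries low in Acta1 and Ckm. The highest library was far from the others in female diaphragm at 18 months, at 3206 CPM, and in male gastrocnemius at 12, 21 and 24 months, at 2298, 2276 and 2390 CPM. In male diaphragm at 27 months replicate 8 reached 5325 CPM beside a group median of 2234 CPM.

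For the stress-inducible members that same diaphragm library reached 4215 CPM beside a median of 1753 CPM. The other high libraries were in female gastrocnemius at 12 and 27 months, at 1423 and 1526 CPM, in male soleus at 18 months, at 1950 CPM, and in tibialis anterior at 12 months, at 1465 CPM in females and 1098 CPM in males.

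Between the sexes, the change at 21 against 6 months (females minus males, log2, edgeR) differed for Dnajb1 by -2.79, -1.38, -1.34 and -1.17 and for Dnaja1 by -1.38, -0.84, -0.82 and -0.76 in diaphragm, gastrocnemius, soleus and tibialis anterior. In diaphragm it also differed for Hspa1b, by -2.55, and Hspa8, by -0.58. Members that changed more upward in females at 21 months were Hspa12b in gastrocnemius and soleus, by 0.51 and 0.67, and in soleus Dnaja4 by 0.53, Hspa1l by 0.51, Dnajb9 by 0.46, Hspb6 by 0.42 and Hspb2 by 0.41. Without the liver-marked libraries Hspb2 alone of these 6 was called in soleus. At 27 months the sexes differed for Hspb8 in gastrocnemius, by 0.37, and for Dnajc18 in soleus, by 0.33.

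Between muscles, the change at 27 months relative to gastrocnemius differed in female tibialis anterior for Hspb7 by -1.41, Dnaja4 by -0.80, Hspb6 by -0.77 and Hspa1l by -0.70. In female soleus it differed for Dnajc21 by 0.46, Dnajc2 by 0.43, Dnajc27 by 0.37, Hspa8 by 0.34, Dnajc18 by 0.26 and Dnajc14 by 0.25. In female diaphragm it differed for Dnaja4 by -0.53 and Hspb8 by -0.44, and in male diaphragm for Dnajb6 by -0.30. The 3 diaphragm differences were not called without the libraries low in Acta1 and Ckm or by limma-voom.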

How the results depend on the processing

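For the other settings in this section no share of all genes is given, so a shift in a count cannot be read as particular to the members. Counts of members called at 27 months were 1 and 2 in female and male diaphragm, 30 and 19 in gastrocnemius, 23 and 1 in soleus and 9 and 14 in tibialis anterior. With a Bonferroni adjustment they were 0, 0, 8, 4, 6, 0, 2 and 0, and those called at any older age went from 26 to 8. With a fold change above 1.5 required they were 0 in male diaphragm, 6 and 2 in gastrocnemius, 1 and 0 in soleus and 1 and 1 in tibialis anterior. With the libraries of 6 and 27 months alone they were 0 and 0 in diaphragm, 17 in female gastrocnemius and 9 in male tibialis anterior. Male diaphragm gave 1 by limma-voom, 1 with no filter on low counts, 0 with a block of sample numbers, 4 without the libraries low in Acta1 and Ckm and 5 without liver-marked libraries. Female diaphragm gave 2 without the low libraries, male soleus 2 with the block of sample numbers, and female tibialis anterior 5 without liver-marked libraries. Leaving out each replicate number in turn, the counts ran from 0 to 1 and 0 to 3 in diaphragm, 24 to 32 and 14 to 24 in gastrocnemius, 18 to 23 and 1 to 2 in soleus and 5 to 11 and 10 to 18 in tibialis anterior. Of the 99 single calls, 60 were kept without every replicate. With no fold limit 63, 63 and 44 of 70 members differed from gastrocnemius in diaphragm, soleus and tibialis anterior, and the share of all genes without that limit is not given. Limma-voom and the fit without the low libraries gave 0 and 6 for muscle by age in female diaphragm, and limma-voom gave 0 in male diaphragm.

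Between 6 and 27 months the replicate numbers were not taken as pairs: the deviations of same-numbered libraries at 6 and 27 months correlated from -0.49 to 0.68, and in no muscle and sex were all 8 over 0.1. Across muscles, same-numbered libraries correlated above 0.1 in 56 of 102 pairs of tibialis anterior and gastrocnemius (median 0.12, up to 0.70), 39 of 103 of soleus and gastrocnemius (median 0.07, up to 0.73) and 23 of 98 of diaphragm and gastrocnemius. Whether a number marks a mouse cannot be told from the labels. With libraries of the same sex, age and number as a block (limma-voom), 28, 18 and 4 members differed from gastrocnemius in diaphragm, soleus and tibialis anterior. With the replicate block male diaphragm gave 0 calls at 27 months, and sex by age in soleus and muscle by age in diaphragm of each sex gave 0. It left 84 of the 99 single calls. The cause of these shifts was not tested, and no direction was reversed. Depth limits Dnajb13 and Dnajc22, which most libraries hold at a few counts or none.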
